A study of Arabidopsis thaliana with 12 samples.

Results

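Wild-type Arabidopsis seed that matured in cool, long days was compared directly with wild-type seed that matured in warm, short days. The comparison uses 6 of the 12 arrays of the study, chosen by their titles. In the first group, 3 arrays of Landsberg erecta (Ler), the mother plants flowered at 20 °C in 16 h days and were then kept at 10 °C in the same day length until the seed was ripe. In the second group, also 3 arrays of Ler, the mother plants stayed at 20 °C in 8 h days throughout. Both groups share the genotype, the light source, the compost and the stage at harvest, which was ripe seed from opened siliques. Another wild-type group, 3 arrays of Ler seed from 20 °C and 16 h days, serves to place the levels of each gene and entered the fit in 2 alternatives only. That group shares its day length with the cool seed and its temperature with the short-day seed. Seed of the mutant ft-1 made up the other 3 arrays, which entered only the alternative fit of all 12. The 2 groups differ in temperature and in day length, so these cannot be told apart in the test itself. Separate plants or harvests are not stated for the replicates, so each p-value reflects how far the 3 samples of a group differ, and part of that may be technical.

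A ripe Arabidopsis seed is dry and nearly inactive, and most of its messenger RNA was made and stored while the embryo filled with reserves and dried. The mother plant's surroundings at that time are known to set how deeply the seed is dormant, with cool maturation giving deep dormancy in many accessions. Stored transcripts therefore act as a record of late maturation, in which storage protein, late embryogenesis abundant (LEA) and stress protein genes are known to be abundant. RNA came from whole seed, so fewer cells of a type and less RNA per cell cannot be told apart.

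Each ATH1 array reports 1 signal per probe set, on a linear scale that was set for each array to the same trimmed mean, and values below are log2 of that signal. Differences are the cool long-day mean minus the warm short-day mean. A probe set rose or fell where limma's adjusted p was under 0.05 over all 22746 probe sets. In all 2624 probe sets passed (11.5%), of which 1137 rose (5.0%) and 1487 fell (6.54%) in cool long-day seed. At least a 2-fold change was seen in 1431 of them (6.29%), 651 up and 780 down. The median rise was 1.12 and the median fall -1.02 on the log2 scale, against a median difference of -0.02 over all probe sets. Cool and short-day arrays did not overlap for 29.2% of all probe sets, and for 2580 of the 2624 that passed. An unadjusted p under 0.05 was given by 5647 probe sets. Of those that passed, 1368 had exactly 1 gene in the annotation, 86 had several and 1170 had none there and are not named.

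**Figure D1:**
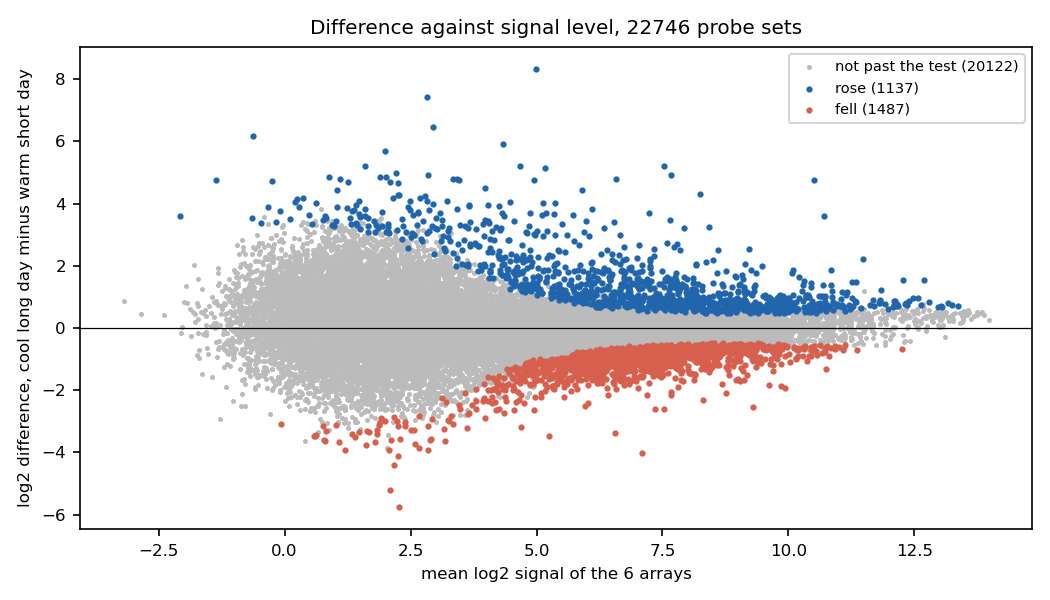
Each point is 1 probe set, with its mean log2 signal over the 6 arrays on the x axis and its log2 difference, cool long-day minus warm short-day seed, on the y axis. Of the 22746 probe sets, 1137 rose (blue) and 1487 fell (red), and the grey points widen at low signal, where only large differences passed.

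The split between rises and falls depended on how arrays are scaled. Of the calls 43.3% were rises as deposited, 50.5% after quantile normalization, 28.7% after centring each array on its median and 10.8% after scaling on the hybridisation controls. Those last 2 scalings moved the median difference of all probe sets to -0.11 and -0.42, and every direction here is relative to the array's trimmed mean. Control signals and summed signals differed between the groups as well. The poly-A controls, bacterial RNAs added before labelling, averaged 8.57 ± 0.395 (log2, SD, n = 3) in cool seed and 7.71 ± 0.0327 (SD, n = 3) in short-day seed, and did not overlap (two-sided p = 0.1 in an exact permutation test, which cannot go lower with 3 arrays a group). They lay between 6.51 and 6.99 in warm long-day seed. The hybridisation controls, added after labelling, did not overlap either (9.90 to 10.06 against 9.50 to 9.71, exact two-sided p = 0.1), and nor did the summed signal (4118260 to 4294740 in cool seed against 3779300 to 3854280 in short-day seed, exact two-sided p = 0.1). Differences of the 3′ and 5′ control probe sets of GAPDH, actin and ubiquitin, a sign of RNA integrity, overlapped between the tested groups. For GAPDH the means were 0.765 in cool and 0.700 in short-day seed (exact two-sided p = 0.7). In warm long-day seed GAPDH (0.32 to 0.60) lay below cool seed (0.70 to 0.86). Actin there (2.32 to 2.45) lay below short-day seed (2.51 to 2.61), and the other ranges of that group overlapped. When the poly-A controls were made a covariate, 53 probe sets passed, 44 of them among the 2624, and 235 of the 2624 took the opposite sign. The level itself separates the groups, so that fit could hardly tell the 2 apart, and the part of the controls in the results was not tested. Across probe sets, cool arrays correlated with each other at r = 0.890 to 0.902, short-day arrays at 0.913 to 0.919, and a cool with a short-day array at 0.877 to 0.891. The count was 1144 without cool array 1, 3948 without cool array 2 and 1069 without cool array 3. Without short-day arrays 1, 2 and 3 it was 1265, 1885 and 1409.

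The largest rises in cool long-day seed included a metallothionein, a sugar transporter and a methionine sulfoxide reductase. Named by size are genes whose probe set has 1 gene, whose groups do not overlap and whose 3 arrays of the higher group all reach a signal of 100. AT2G43590 was at 12.98, 12.75 and 12.93 (log2 signal) on cool arrays 1, 2 and 3 and 7.89, 8.53 and 8.00 on short-day arrays 1, 2 and 3. All 3 cool arrays lay far above all short-day arrays, by 4.74 on average (SE 0.18, adjusted p = 2.5e-08). In warm long-day seed it stood at 8.19, 8.53 and 7.97, within the reach of the short-day values.

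AT3G62730 was measured at 10.36, 9.49 and 10.54 in cool seed and 4.81, 5.25 and 4.74 in short-day seed. No cool array came near the short-day arrays, and the means differed by 5.20 (SE 0.25, adjusted p = 8.8e-08). The metallothionein gene MT1C, whose product is a small protein that binds metal ions, stood at 10.21, 9.97 and 10.23 in cool seed and at 4.90, 6.25 and 4.50 in short-day seed. Short-day array 2 was the highest of its group and still lay far below the cool arrays, with a mean difference of 4.92 (SE 0.33, adjusted p = 2.1e-06). Unlike AT2G43590 and AT3G62730, MT1C was at 7.62, 7.76 and 7.10 in warm long-day seed, between both groups and overlapping neither.

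SWEET7, from a family of sugar transporters, gave 7.57, 6.79 and 7.47 in cool seed and 3.41, 3.30 and -0.48 in short-day seed. Short-day array 3 stood apart from its group, so the size of the rise (5.20, SE 0.79, adjusted p = 0.0013) is uncertain although no array overlapped. MSRB5, a methionine sulfoxide reductase that repairs oxidized methionine in proteins, stood at 7.74, 6.85 and 7.88 against 4.36, 4.55 and 4.31 without overlap, a rise of 3.09 (SE 0.28, adjusted p = 2.9e-05). The other genes in this set of 12 have a locus and no symbol in the annotation used, and their roles are not given. They were AT3G58550 (5.90, from a short-day mean of 1.38 with array 3 at -1.66), AT2G18370 (4.76), AT2G31945 (3.68), AT5G55560 (3.41), AT4G10270 (3.24), AT5G19120 (2.96) and AT1G72570 (2.66).

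The largest falls were led by AT1G68240 and held 4 genes of the plastid genome. AT1G68240 stood at 4.51, 5.69 and 5.02 in cool seed and at 9.21, 8.82 and 9.29 in short-day seed, with no overlap (-4.03, SE 0.26, adjusted p = 1.6e-06). Warm long-day seed held it at 9.44, 9.40 and 8.64, with the short-day arrays. The plastid gene ndhI, for a subunit of the NADH dehydrogenase-like complex, was at 5.94, 6.23 and 5.97 in cool seed and at 8.85, 8.74 and 8.36 in short-day seed, again without overlap (-2.60, SE 0.18, adjusted p = 3.6e-06). The other plastid genes were rpoA (-2.52), for a subunit of the plastid RNA polymerase, rpl14 (-2.40), for a ribosomal protein, and matK (-1.85), for a splicing factor.

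HIS1-3, a linker histone known in leaves for its induction by drought, was at 6.47, 7.07 and 6.22 in cool seed and at 8.81, 8.69 and 8.75 in short-day seed. The short-day arrays were close together and all above the cool ones (-2.17, SE 0.20, adjusted p = 4e-05). Others were the glycosyltransferase gene UGT85A3 (-2.15) and the tetraspanin gene TET2 (-1.92). The rest have no symbol here: AT4G23493 (-3.49), AT1G13340 (-2.31), AT5G01020 (-2.07) and AT5G46070 (-1.84). In AT4G23493 cool array 1 lay at a dim 1.70, so the size of its fall is uncertain. With the poly-A covariate 7 genes of both sets of 12 still passed, namely AT3G62730, MT1C, AT2G43590, AT5G55560, AT1G68240, ndhI and UGT85A3. Leaving out any 1 array ended none of the 24 calls.

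**Figure D2:**
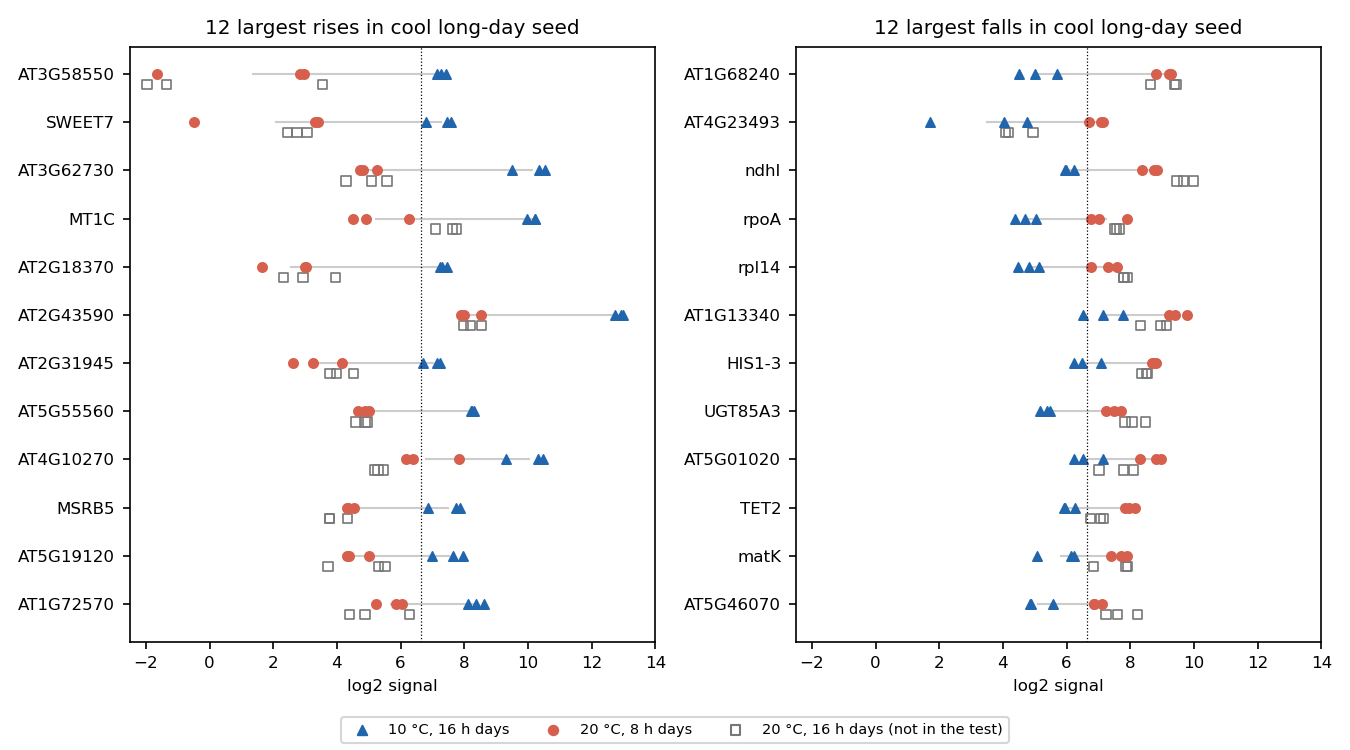
Log2 signal on each array for the 12 largest rises (left) and the 12 largest falls (right): triangles are cool long-day seed, circles warm short-day seed and open squares warm long-day seed, which is not in the test. The grey line joins the means of the tested groups and the dotted line marks a signal of 100; triangles and circles overlap for none of the 24 genes, as the rule that chose them requires.

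Among cold-response genes, 3 with abundant transcript in both groups rose in cool long-day seed. Of 25 listed genes 6 were measured. Of these 6, 3 rose and none fell, with a median difference of 0.57, where 5.0% of all probe sets rose. The 3 that rose were among the brightest 10% of probe sets, of which 26.5% passed in either direction. With median centring or scaling on hybridisation controls 1 of the 6 rose. STZ, a zinc finger repressor induced by cold and salt, stood at 11.22, 11.11 and 11.19 in cool seed and 9.72, 9.58 and 9.89 in short-day seed. All cool arrays were above all short-day arrays (1.45, SE 0.15, adjusted p = 8.3e-05). LTI30, a dehydrin, rose by 0.66 (SE 0.19, adjusted p = 0.041) and COR27, a cold-regulated gene that acts in the circadian clock, by 0.48 (SE 0.14, adjusted p = 0.042). LTI30 and COR27 each lost the call without any 1 of the arrays except cool array 2, which left STZ alone. COR15A (-1.69), COR15B (-0.29) and COR47 (1.03) were dim in both groups and did not pass.

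Genes of seed maturation and storage, which mark ripe seed, gave high summed signals in both groups. The lowest sum on any of the 6 arrays was 115635 for LEA genes and 39946.6 for storage and oil body genes. Of 21 measured LEA genes, whose products protect cells as they dry, 17 reached a mean signal of 100 in at least 1 group. Of the 21, 2 rose and 2 fell. Over all probe sets 11.5% passed, and over the brightest 10% of them 26.5%. AT3G02480, listed as a LEA gene, stood at 13.58, 13.28 and 13.54 in cool seed and 11.77, 12.22 and 11.81 in short-day seed, without overlap (1.53, SE 0.20, adjusted p = 0.00045). M17 rose by 0.83, and AT2G42560 (-0.69) and AT2G18340 (-0.63) fell. The list's median was 0.19 as deposited and turned to -0.21 under both quantile normalization and scaling on hybridisation controls. Of 9 storage and oil body genes, AT1G03890 rose (0.72) and AT4G36700 fell (-0.75), and the vicilin-like gene PAP85 gave 0.40 (adjusted p = 0.24). The median of that list was 0.33 as deposited, -0.04 after quantile normalization and -0.07 with scaling on hybridisation controls. Apart from AT3G02480, each of these calls was lost without cool array 1 and without cool array 3.

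Of the genes that set dormancy and germination, 7 of 34 listed were measured, so the list is mostly unseen here. Of these 7, 1 passed, where 11.5% of all probe sets did. AT4G18650, listed with the dormancy regulators, stood at 10.95, 10.92 and 10.71 in cool seed and at 10.08, 10.23 and 9.33 in short-day seed, with no overlap. It rose by 0.98 (SE 0.21, adjusted p = 0.01), and the call was lost without cool array 1 (adjusted p = 0.055) and with scaling on hybridisation controls (adjusted p = 0.11). The gibberellin receptor genes GID1A (-0.19), GID1B (-1.06) and GID1C (-0.20), the germination repressor SPT (-0.58) and the abscisic acid pathway factor EEL (0.10) did not pass. Of clock and light genes, 3 were measured and none passed limma's test, adjusted or not, where 11.5% of all probe sets passed when adjusted. GI gave 0.08, TIC -0.64 and HYH 1.47.

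Of 7 measured small heat shock protein genes, whose products hold unfolded proteins, AT2G29500 alone passed, where 11.5% of all probe sets did. It stood at 9.96, 10.65 and 9.96 in cool seed and 8.45, 8.28 and 8.28 in short-day seed, with every cool array the higher (1.86, SE 0.19, adjusted p = 6.8e-05). AT1G52560 gave 0.47, AT1G53540 -0.72 and ATHSP22.0 -0.17, and none of these 3 passed. In warm long-day seed AT1G52560 stood at 7.31 and AT1G53540 at 8.63, below the means of both tested groups (9.56 and 9.09 for AT1G52560, 9.78 and 10.51 for AT1G53540, cool first). The list's median was -0.17 as deposited, 0.02 after quantile normalization and 0.96 with the poly-A covariate.

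Of 8 measured nuclear genes for photosynthesis, which would also mark green silique wall, 3 rose and 1 fell, with a median of 0.90. Over all probe sets 5.0% rose and 6.54% fell. LHCB4.3, a minor antenna protein of photosystem II, stood at 8.01, 7.99 and 8.36 in cool seed and at 5.72, 6.13 and 5.74 in short-day seed, every cool array above every short-day array (2.26, SE 0.19, adjusted p = 1.9e-05). LHCB4.2 (1.22), a close relative, and PSBW (1.84), a small subunit of photosystem II, rose too. LHCB4.1, the third member of that antenna family, fell (-0.62), and lost the call without short-day array 1, cool array 1 or cool array 3. RCA, the activase of Rubisco and a marker of green leaves, gave 0.02 at a dim 5.49 in cool seed and 5.47 in short-day seed. The summed signal of the 8 genes was 1342 to 1559 in cool seed and 903 to 1036 in short-day seed, and 871 to 1388 in warm long-day seed.

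Genes encoded in the plastid had more falls than rises. Of 69 measured plastid genes, 22 fell and 2 rose, with a median of -0.49, and 51 of the 69 differences were below 0. Over probe sets with exactly 1 gene, 10.1% passed in either direction. The median stayed below 0 after quantile normalization (-0.38), centring on the median (-0.59), scaling on hybridisation controls (-0.89) and with the poly-A covariate (-0.43), where 2 genes passed, both as falls. Leaving out 1 array at a time gave 12 to 25 falls and 0 to 4 rises.

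By role, 7 of the 22 falls were ribosomal protein genes, 4 were ATP synthase genes, 3 photosystem II genes, 2 NADH dehydrogenase-like genes and 3 genes of other roles, with 1 each in RNA polymerase, photosystem I and cytochrome b6f. Of 15 ribosomal protein genes 7 fell and 1 rose, with a median of -1.05. The 4 RNA polymerase genes had a median of -1.07, with rpoA the member that passed. All 6 ATP synthase genes were below 0 and 4 of them fell, atpF by 1.60, atpH by 1.41, atpB by 0.93 and atpE by 0.65. The protease subunit gene clpP stood at 8.72, 8.55 and 8.85 in cool seed and 10.49, 10.32 and 10.78 in short-day seed, all cool arrays the lower (-1.83, SE 0.16, adjusted p = 2.5e-05). By contrast the 15 photosystem II genes had a median of 0.23, with psbI, psbK and psbC past the test as falls and psbL (1.34) as a rise. The other plastid gene that rose was rpl32 (1.38). Of 10 NADH dehydrogenase-like genes, ndhI and ndhA fell. The difference between these roles was not tested.

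Of 16 mitochondrial genes 2 fell and 1 rose, with a median of 0.03 as deposited and -0.37 with scaling on hybridisation controls. Over all probe sets 6.54% fell and 5.0% rose. The respiratory gene cox2 fell (-1.16), as did ccb452 (-0.89), and nad6 rose (0.97). The calls of ccb452 and nad6 were lost without short-day array 1 or 3 and without cool array 1 or 3, and their probe sets are of a kind that can match more than 1 transcript.

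Some genes for small antimicrobial peptides rose in cool long-day seed. Of 18 measured defensin-like and thionin genes, 5 rose and none fell, with a median of 0.59 against -0.02 over all probe sets, of which 5.0% rose. LCR69 stood at 9.82, 9.31 and 9.66 in cool seed and 7.39, 7.31 and 7.54 in short-day seed (2.18, SE 0.17, adjusted p = 6.2e-06). LCR68 was at 8.34, 8.45 and 8.26 in cool seed and 6.09, 6.32 and 6.03 in short-day seed (2.21, SE 0.17, adjusted p = 6.8e-06). In both genes every cool array lay above every short-day array, and both still passed with the poly-A covariate. The plant defensin genes PDF1.2b (1.40, from a probe set that can match related genes), PDF1.4 (1.87) and PDF2.1 (0.74) rose as well. Leaving out 1 array at a time gave 4 to 6 rises.

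Autophagy genes, whose products enclose cell contents for breakdown in the vacuole, all had differences above 0. Of 10 measured, all with a mean signal of at least 100 in at least 1 group, 6 rose, with a median of 0.80. Of all probe sets 5.0% rose, and 26.5% of the brightest 10% passed in either direction. The 6 rises became 3 with median centring and 1 with scaling on hybridisation controls. ATG3, the enzyme that joins ATG8 to lipid, stood at 9.39, 8.90 and 9.28 in cool seed and 8.08, 8.30 and 7.92 in short-day seed, with no overlap (1.08, SE 0.17, adjusted p = 0.0016). ATG8E (1.31), ATG8G (0.92), APG8A (0.84), ATG8H (0.76) and APG8H (0.63), all of the ATG8 family, rose too. Cool and short-day arrays did not overlap for 4 of the 10 genes, where this held for 29.2% of all probe sets. Some of the 6 rises thus came with overlapping arrays. ATG8B (0.87), ATG8C (0.12), ATG8D (0.08) and ATG8F (0.34) did not pass. The count fell to 1 without cool array 1 and reached 7 at most with another array left out, and none passed with the poly-A covariate.

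Genes of the ubiquitin pathway went both ways, where 5.0% of all probe sets rose and 6.54% fell. Of 24 conjugating enzymes and ubiquitin proteases, the conjugating enzyme genes UBC19 (1.18) and UBC28 (0.66) rose, and the protease genes UBP16 (-1.25), UBP23 (-0.99) and UBP24 (-0.72) fell. Of these 5, UBC19 kept its call whichever array was left out. None of 9 U-box ligase genes passed limma's adjusted p, and 2 had an unadjusted p under 0.05, with PUB49 at -0.63 and PUB26 at 1.07.

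Sugar transporters and beta-glucosidases had more rises than falls as deposited. With scaling on hybridisation controls 2 sugar transporter genes rose and 2 fell, and without cool array 2, 3 rose and 2 fell. Of 19 sugar transporter genes 3 rose and none fell, with a median of 0.63, where 5.0% of all probe sets rose and 6.54% fell. Beside SWEET7 these were SWEET6, at 10.01, 10.02 and 9.98 in cool seed and 9.00, 9.35 and 8.60 in short-day seed (1.02, SE 0.18, adjusted p = 0.0032), and SFP1 (2.59), a monosaccharide transporter gene known from ageing leaves. Of 20 beta-glucosidase genes, whose products release sugar from glycosides, 4 rose and 1 fell, with a median of 0.82. BGLU15 (3.31, dim at 5.14 in cool seed and 1.83 in short-day seed, so its size is uncertain), BGLU28 (1.69), BGLU25 (0.92) and BGLU19 (0.67) rose and BGLU44 (-1.14) fell. BGLU19, at a mean of 13.39 in cool seed and 12.72 in short-day seed, lost its call whichever array was left out, and BGLU28 without cool array 1 or 3. The count of rises was 2 without cool array 1, without cool array 3 and with scaling on hybridisation controls.

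Of 47 measured UGT genes, for glycosyltransferases, which attach sugars to small molecules, 7 fell and 2 rose. Over all probe sets too falls (6.54%) outnumbered rises (5.0%). The falls came from few subfamilies: UGT85A3, UGT85A4 (-1.03) and UGT85A5 (-1.32) of one, UGT76E11 (-0.72) and UGT76E12 (-1.24) of another, and the flavonoid and sterol enzymes UGT78D2 (-0.89) and UGT80B1 (-0.96). UGT76C1 (1.26), which acts on cytokinins, and UGT76B1 (1.37) rose. Of 8 measured genes of the list for flavonoids, which colour and seal the seed coat, UGT78D2 and UGT80B1 passed, both as falls. UGT80B1 is the sterol enzyme of the 2, and over all probe sets 11.5% passed. DFR (2.15, adjusted p = 0.058) and BAN (0.96) were dim in both groups, at or below a mean of 4.17, and did not pass.

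In further families 0 to 3 genes passed, where 11.5% of all probe sets did. Of 14 glutathione transferase genes GSTU26 (1.62) and GSTU15 (3.55, at a dim 3.06 in cool seed) rose. Of 23 cytochrome P450 genes CYP71B5 fell (-1.98), and of 29 serine carboxypeptidase-like genes scpl48 rose (4.28, dim at 4.41 in cool seed and 0.13 in short-day seed, so its size is uncertain). Of 27 xyloglucan hydrolase and expansin genes, which loosen cell walls, EXLA1 rose, from 10.17, 10.40 and 9.98 in short-day seed to 11.06, 11.32 and 11.18 in cool seed (1.00, SE 0.16, adjusted p = 0.002). Of 14 bZIP factor genes BZIP53, a regulator of seed maturation genes, rose (1.58, SE 0.20, adjusted p = 0.00035) and BZIP28, a sensor of protein folding stress, fell (-0.90). Of 6 WRKY genes WRKY22 rose (0.90). Of 7 histone genes, HTB1 (0.92) and HTB11 (0.84), which encode histone H2B, rose and HIS1-3 fell. No gene passed among 5 bHLH factors, 17 RALF and CLE peptides, 9 tubulins and actins, 8 SEC secretion genes, 3 vacuolar ATPase subunits and 7 auxin-induced genes (limma, adjusted p under 0.05), and at an unadjusted p under 0.05 there were 4 of the RALF and CLE peptides, 2 of the tubulins and actins, 2 of the SEC genes and none of the rest. The calls of BZIP28, WRKY22, HTB11, GSTU15 and scpl48 were lost without cool array 1 and without cool array 3, and that of CYP71B5 without short-day array 1.

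Markers of other tissues mostly did not pass, where 11.5% of all probe sets did. Groups this small say little about tissue content. None of 7 pollen genes passed, with or without adjustment (median -0.13 as deposited and 0.04 after quantile normalization), and their summed signal was 475 to 516 in cool seed and 528 to 599 in short-day seed, against 147 to 232 in warm long-day seed. Of 3 measured seed coat genes ARA12, a subtilisin-like protease of seed coat mucilage, rose (1.20, SE 0.18, adjusted p = 0.001). The measured endosperm gene and the 2 embryo epidermis genes did not pass, and all 3 were dim.

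**Figure D3:**
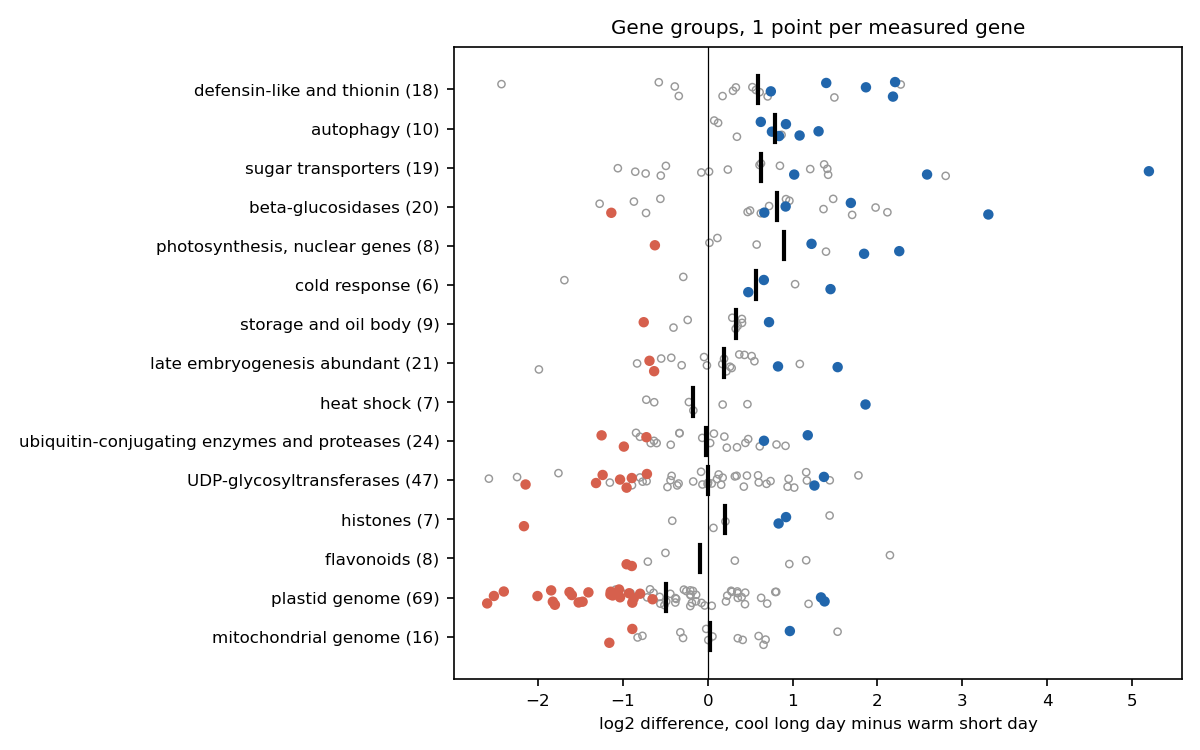
Log2 difference, cool long-day minus warm short-day seed, for every measured gene of 15 groups, with the number of genes in brackets, rises in blue, falls in red and genes that did not pass as open circles. The black bar is the median, at -0.49 for the plastid genome, 0.59 for defensin-like genes and 0.80 for autophagy genes.

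Temperature and day length change together between the tested groups, and the warm long-day arrays show on which side each gene's level changed. The place of the warm long-day mean was read as a share of the distance from the short-day mean to the cool mean. For a gene near short day the warm long-day mean lies within 0.25 of the distance from the short-day mean. For a gene near cool it lies within 0.25 of the distance from the cool mean. These bands widen with a gene's own difference, so even there the means can lie apart. In AT3G58550, near short day, the means were 1.38 in short-day and 0.08 in warm long-day seed. Of the 2624 probe sets that passed, 1060 (40.4%) lay near short day and 152 (5.79%) near cool. Between these were 628 (23.9%), another 744 (28.4%) lay beyond the short-day mean and 40 (1.52%) beyond the cool mean. The share near short day was 35.2% to 47.6% under the alternatives tried, the poly-A covariate aside, for which it was not computed. This is a description with no test, and the warm long-day arrays had the lowest poly-A controls of the 3 groups, with short-day arrays in the middle. How far that order bears on the places was not tested.

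**Figure D4:**
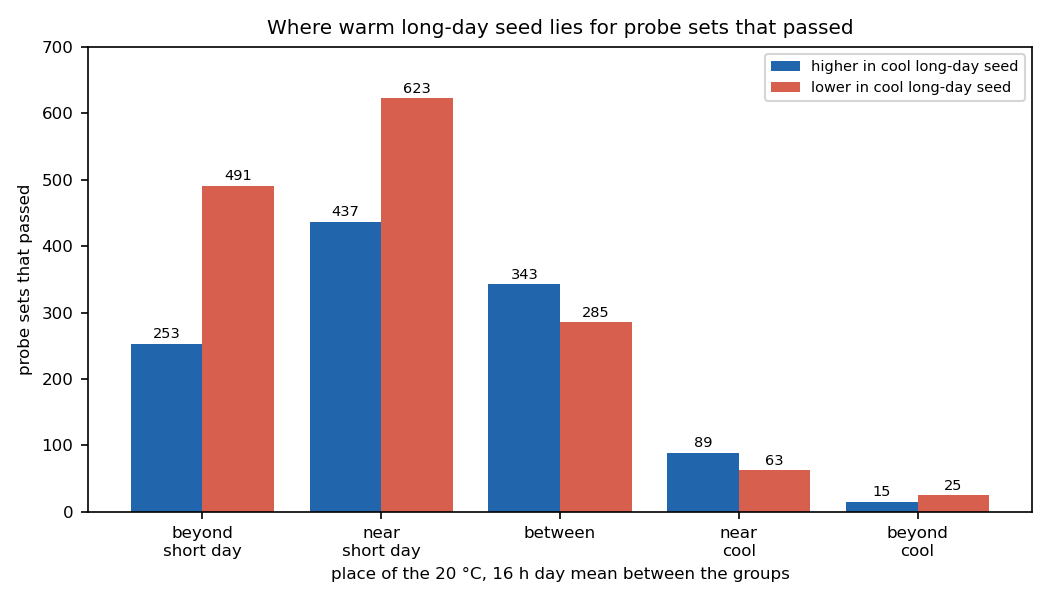
Number of probe sets that passed, higher (blue) or lower (red) in cool long-day seed, by the place of the warm long-day mean on the line from the short-day to the cool mean. The 1060 near short day outnumber the 152 near cool in both directions.

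Genes near short day included most of the largest rises, for which the bands are also widest. AT2G43590, AT3G62730, SWEET7, AT2G18370 and AT3G58550 were the 5 with the largest differences, and STZ, LTI30, AT4G18650, LHCB4.3, PSBW, LCR68, ATG3, SWEET6, HIS1-3 and AT1G68240 lay there too. STZ, for example, was at 9.66, 9.63 and 10.43 in warm long-day seed, overlapping the short-day values and below all cool ones.

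Genes near cool, with both long-day means close on that scale, were fewer, and how far day length set their level was not tested. AT3G31955, annotated as a pseudogene and read by a probe set that can match other transcripts, stood at 8.00, 8.20 and 9.58 in cool seed, 7.46, 9.27 and 7.43 in warm long-day seed and 6.01, 6.50 and 5.69 in short-day seed (2.53, SE 0.34, adjusted p = 0.00052). AT4G01610 was at 7.22, 7.24 and 7.03 in cool seed and at 7.87, 7.87 and 6.33 in warm long-day seed, against 4.72, 5.17 and 5.27 in short-day seed (2.11, SE 0.23, adjusted p = 0.00011). Both long-day groups were again alike in AT3G09440, at 8.42, 8.63 and 8.34 in cool and 8.42, 8.58 and 8.38 in warm seed, with short-day seed at 6.82, 7.21 and 6.94 (1.47, SE 0.17, adjusted p = 0.00015). In AT3G31955, AT4G01610 and AT3G09440 alike, the 6 long-day arrays all lay above the 3 short-day arrays. AT4G25030 rose by 1.48 and AT3G15357 fell by 1.41 with the same place.

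In genes between the groups the means went in steps, warm short day, warm long day and cool long day. MT1C had means of 5.22, 7.50 and 10.14. AT4G01870 had means of 7.95, 9.42 and 10.49 (2.53, SE 0.18, adjusted p = 4.3e-06), and AT2G46600 of 5.40, 6.13 and 7.59. LCR69 lay between as well (7.41, 8.28 and 9.60), where its relative LCR68 lay near short day. AT4G23493 and AT1G13340 were the 2 falls with the largest differences there. In AT4G23493 the warm long-day arrays (4.94, 4.08 and 4.17) overlapped the cool arrays (1.70, 4.77 and 4.04), so its place is uncertain.

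Beyond the short-day mean, warm long-day seed stood farther from cool seed than short-day seed did. The plastid genes ndhI (6.05 in cool seed, 8.65 in short-day seed and 9.70 in warm long-day seed) and rpl14 (4.82, 7.22 and 7.84) were of this kind. So were AT4G10270 (10.03, 6.80 and 5.31), UGT85A3 (5.34, 7.49 and 8.12) and the heat shock gene AT2G29500 (10.19, 8.33 and 7.15). For these genes cool long days and warm short days lay on the same side of warm long days, so a contrast of each with warm long-day seed would have the same sign.

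Beyond the cool mean lay the fewest. BGLU25 had means of 7.88 in cool seed, 6.96 in short-day seed and 8.28 in warm long-day seed (0.92, SE 0.17, adjusted p = 0.0038). AT3G23570 (0.97) and AT4G37180 (0.82) rose, and AT3G16120 (-1.09) and AT3G08780 (-0.85) fell, with the same place. The call of AT3G08780 was lost without cool array 1 or 2 and without short-day array 1 or 3.

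The size of a gene moved with its difference. Length was taken from start to end of the gene in TAIR10.1, introns included, and was known for 13415 probe sets. Genes that rose had a median length of 1642 bp (n = 596), genes that fell 2992 bp (n = 745) and all genes 2118 bp. Among the brightest 40% of probe sets, the shortest 20% (231 to 1571 bp) held 219 rises and 44 falls with a median difference of 0.26, and the longest 20% (3411 to 26499 bp) held 16 rises and 263 falls with a median of -0.50. In steps of 20% between these the medians were -0.00, -0.11 and -0.28. In the same classes, warm long-day minus short-day seed gave medians from -0.24 in the shortest to 0.28 in the longest. A cause of this trend was not tested.

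**Figure D5:**
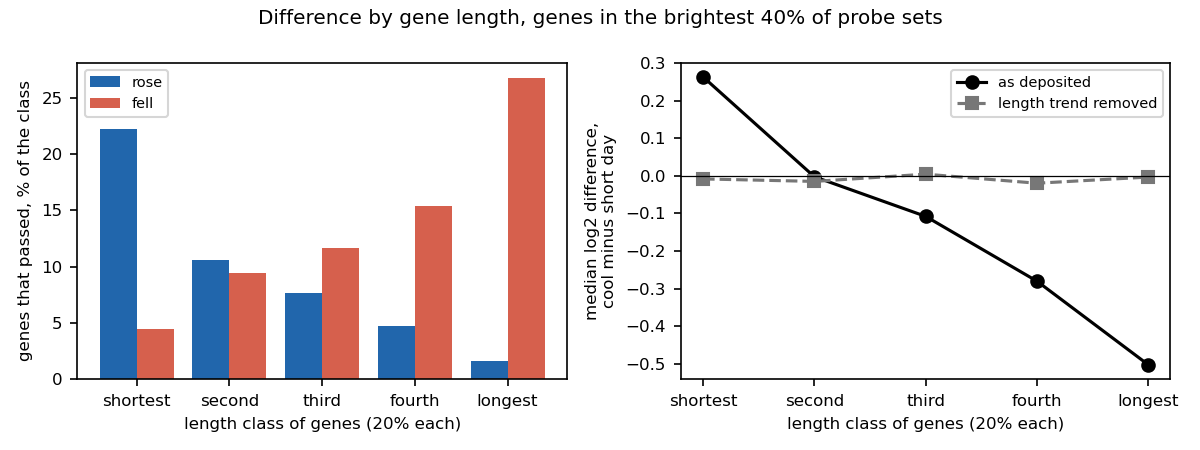
Left, the percentage of genes in each of 5 length classes of equal size that rose (blue) or fell (red) in cool long-day seed, among the brightest 40% of probe sets. Right, the median log2 difference of each class as deposited (black) and with each array's length trend removed (grey), which runs from 0.26 to -0.50 as deposited and stays near 0 when removed.

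With each array's trend on length removed, 1025 of the 13415 genes passed (7.64%), 601 as rises and 424 as falls, against 1290 without the removal. Of the 1341 calls with a length, 831 remained and 4 took the opposite sign. The groups of genes were touched unequally. Autophagy kept 4 rises, defensin-like genes 4, cold response 2, sugar transporters 3 and nuclear photosynthesis genes 3 rises and 1 fall, while beta-glucosidases kept 4 rises and 1 fall and gained BGLU40 as a rise. In the ubiquitin group none of the 3 falls remained, and UBC32 rose beside UBC19 and UBC28. GI also passed, as a rise. As deposited GI was at 6.95, 8.03 and 7.00 in cool seed and 7.36, 6.90 and 7.48 in short-day seed. Those arrays overlapped, and the difference was 0.08 (limma, adjusted p = 0.90). LEA and storage medians went to -0.08 and -0.04. Of the genes named by the rule in the processing section, LTI30, M17, HTB1, HTB11, BZIP28, UBP16, UGT80B1 and GSTU15 lost their calls. Organelle genes have no length in the table and could not be treated in this way.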

How the data were processed

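Total RNA from ripe seed was labelled with biotin and hybridised to Affymetrix ATH1 arrays, 1 sample each. Per the submitters' processing notes, the authors used MAS5 and GCOS (versions not given in the sources used here) to make the deposited intensity of each probe set, which is linear, and each column's mean without its lowest and highest 2% was 100. Such scaling hides changes in total messenger RNA. Of 22810 probe sets, 64 controls were left out. Log2 intensities of the 6 arrays were fitted with limma 3.58.1 in R 4.3.3 (intensity trend, two-sided p, Benjamini-Hochberg over 22746 probe sets, threshold 0.05). The number of arrays limits the precision. Detection calls were not used here. Gene names came from the platform annotation, updated through TAIR10.1 gene identifiers: 13513 probe sets had 1 gene, 503 several and 8730 none. For the 147 genes with more than 1 probe set, lists used the one with the highest mean.

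Named genes are the 12 largest rises and falls that meet the conditions given with them, the 3 members of each list with the smallest adjusted p, the 5 largest differences for each place of warm long-day seed, and MT1C, LTI30, STZ, COR15B, HIS1-3, LCR69, AT4G18650, SPT, EEL, GI, AT1G68240 and AT2G43590. Other list members and the genes under other observations were named after their values were seen. The comparison, lists, rule and alternatives were chosen with earlier results of these data known, so they are no independent support. List patterns by symbol were corrected after symbols, not values, were read. Of 44 lists, 32 had at least 3 measured members, and metallothioneins (MT1C), endosperm and embryo epidermis had fewer, as did proteasome, NAC, aquaporin, symbol-based heat shock and LOB and zinc finger genes. MYB, ERF, RAB and type 2C phosphatase lists had 0. Removal of the length trend used a lowess curve with a span of 0.3 for each array.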

Additional observations from a re-analysis of the deposited data

How the results depend on the processing

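The count of 2624 probe sets became 4781 with scaling on hybridisation controls, 189 without the intensity trend of the variance, 1572 without the trend and with the dimmest 40% left out, 53 with the poly-A controls as a covariate, 1431 with at least a 2-fold change required, and 1021 at an adjusted p under 0.01. Leaving out 1 array at a time gave 1069 to 3948. Other settings, namely quantile normalization, median centring, filters, an offset of 16, array weights and fits of 9 or 12 arrays, kept it within 1.5 times. Over the 13415 genes with a length it was 1290, and 1025 with the length trend removed. The cause of these moves was not tested. Requiring a 2-fold change or a smaller p removes calls by construction.

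Of 81 named genes that passed, 66 lost the call and 2 changed sign with the poly-A covariate (BZIP28 at 0.55, HTB11 at -0.22). Without the variance trend 59 lost it, with hybridisation controls 15, with quantile normalization or median centring 7 each, with the length trend removed 8 of 73, and without cool arrays 1, 2 and 3, 20, 2 and 17. Without short-day arrays 1, 2 and 3, 15, 6 and 11 lost it. The filter and array weights ended none. The alternatives with the length trend removed and with the variance trend and filter together were chosen after seeing the data. Replicate numbers did not pair the samples (deviations of same-numbered arrays correlated at 0.012, 0.016 and -0.007). With the replicate number as a block 2093 probe sets passed, and LTI30, COR27 and nad6 lost their calls. Low signals limit the reach: among dim probe sets only large differences passed.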

Other observations

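The genes and families below were picked after their values were seen, so their counts are descriptions beside the 5.0% of all probe sets that rose and the 6.54% that fell. Of 4 measured methionine sulfoxide reductase B genes, which repair oxidized methionine, 3 rose: MSRB5, MSRB6 (1.50, SE 0.25, adjusted p = 0.0023) and MSRB3 (1.01, SE 0.21, adjusted p = 0.0084). MSRB6 stood at 8.53, 8.29 and 8.52 in cool seed and 6.85, 7.61 and 6.37 in short-day seed, with no overlap. Of 3 glutaredoxin genes GRXC1 (0.82, SE 0.19, adjusted p = 0.014) and GRXC2 (1.15, SE 0.25, adjusted p = 0.0098), whose products reduce disulphides, rose, and GRX480 gave 0.48. With the length trend removed, MSRB6 gave 1.59 (adjusted p = 0.00093), MSRB3 0.96 (adjusted p = 0.0068), GRXC1 0.69 (adjusted p = 0.035) and GRXC2 1.16 (adjusted p = 0.0069). Of 3 genes gathered only by a symbol that starts with CYTC, CYTC-1 (0.84) and CYTC6A (1.03) rose and CYTC-2 gave 0.19 (adjusted p = 0.54). The formate dehydrogenase gene FDH (0.98), the lipocalin gene TIL (0.97), known for protecting membranes in the cold, and the chitinase gene ChiC (2.51) rose as well.

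The nuclear pore genes NUP155 (-1.67, SE 0.36, adjusted p = 0.0096) and NUP1 (-1.50, SE 0.38, adjusted p = 0.021) fell, and for NUP1 cool array 2 lay above short-day array 2, so the groups overlapped. Of 10 chromatin remodeller genes 4 fell, CHR23 (-1.96), INO80 (-1.29), ATRX (-1.18) and ETL1 (-1.09, with overlapping groups). INO80, ATRX and ETL1 were added by name to the genes with a CHR symbol, so 4 of 10 is no share of a family. Among the genes with a CHR symbol, CHR23 alone passed. Of 12 nuclear RNA polymerase genes NRPA2 (-1.22), NRPC2 (-0.75) and NRPD7 (-0.79) fell and NRPB9A (1.55) rose. SPY, a repressor of gibberellin signalling, fell (-1.34, SE 0.33, adjusted p = 0.019), as did CUL4 (-1.05) and RAPTOR1 (-1.08). The median length was 5474 bp for the remodellers and 6623 bp for the pore genes, against 2118 bp for all genes. With the length trend removed, 1 of the 4 remodellers and 1 of the 2 pore genes still passed, SPY gave -0.66 (adjusted p = 0.11) and RAPTOR1 -0.29 (adjusted p = 0.46), while CUL4 gave -0.44 (adjusted p = 0.064). Of the polymerase genes NRPC2 then gave 0.10 (adjusted p = 0.86) and NRPA2 -0.46 (adjusted p = 0.18), while NRPD7 (-1.04, adjusted p = 0.0099) and NRPB9A (1.38, adjusted p = 0.00049) still passed.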
